A study of Arabidopsis thaliana with 18 samples.

Results

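The 47 genes described here are a chosen list of cell-cycle genes of Arabidopsis, counted in root tips. They are 9 A-type, 9 B-type and 10 D-type cyclins, 5 cyclin-dependent kinases (CDKs) and 7 inhibitors of the KRP family. With them are the inhibitors SIM and SMR1, 3 CCS52 activators, and the cytokinesis proteins KNOLLE and HINKEL. The 47 were taken by locus identifier from the 33602 loci listed in each count table, by their known roles and with no threshold on their values. All but KRP4, which is listed there by locus alone, carried the name in the TAIR10.1 annotation. Names are written with a hyphen (CYCB1-1, CDKA-1) where the annotation has a semicolon.

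Primary roots of 7-day-old seedlings, grown in continuous light, were cut and RNA-seq libraries were made from the piece with the tip, 18 libraries in 9 groups of 2. In the set read at 101 bp, wild-type Col-0 seedlings were treated for 4 h with the auxin IAA at 5 µM plus the brassinosteroid BL (brassinolide) at 100 nM, with IAA alone, with BL alone, or with a mock solution. The same set held the untreated mutants bri1-116;bzr1-1D and bri1-116, both in the Col-0 background. In the set read at 36 bp, dwf4 seedlings treated with 100 nM BL for 4 h were sampled with untreated dwf4 and untreated Col-0, and the dwf4 allele was not given in the sources used here. BRI1 is the brassinosteroid receptor, bzr1-1D is a dominant allele that stabilises the transcription factor BZR1 downstream of it, and DWF4 is an enzyme of brassinosteroid synthesis. The 101 bp set held no untreated Col-0, so a difference between an untreated mutant and mock-treated Col-0 cannot be told apart from one due to the mock solution. Both read-length sets were scaled and tested apart.

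Cyclins bind and activate CDKs, and the pair decides which step of division follows. D-type cyclins with CDKA-1 act at entry into S phase, A-type cyclins act from S phase to mitosis, and B-type cyclins with the plant-specific CDKB kinases act at mitosis. KRP, SIM and SMR proteins inhibit cyclin-CDK complexes, and CCS52 proteins activate the anaphase-promoting complex, which degrades cyclins and lets root cells leave mitosis for repeated rounds of DNA replication. In roots, auxin is known for triggering the divisions that found lateral roots, and brassinosteroids for acting on both meristem size and cell elongation.

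Genes of mitosis in plants often carry the mitosis-specific activator (MSA) element, whose core AACGG is bound by MYB3R transcription factors. The core was searched on both strands in the window of 280 bases from 250 before to 30 after each annotated gene start in TAIR10.1 (RefSeq). It was found for 21 of the 47 genes (44.7%), against 22.9% of the windows of 27443 protein-coding genes. By class, 8 of 9 B-type cyclins, 4 of 9 A-type cyclins, 5 of 7 KRP genes, and both cytokinesis genes held it, against 1 of 10 D-type cyclins and 1 of 5 CDKs. SIM, SMR1 and the CCS52 genes held none, which says only that these letters are not in this window. The windows of 5 genes are printed to show how matches differ: CYCB1-3 and CYCB1-4 were lower in both single mutants, KRP1 holds the most cores, CYCD3-1 is the D-type cyclin with a core, and CYCD1-1, with the largest change in both mutants, holds none. Each is written 5′ to 3′ on the gene's own strand with the core, on either strand, in capitals. CYCB1-3 holds 3 cores, KRP1 holds 7, CYCB1-4 and CYCD3-1 hold 1 each and CYCD1-1 holds 0.
CYCB1-3, chr3:3627244-3627523, minus strand: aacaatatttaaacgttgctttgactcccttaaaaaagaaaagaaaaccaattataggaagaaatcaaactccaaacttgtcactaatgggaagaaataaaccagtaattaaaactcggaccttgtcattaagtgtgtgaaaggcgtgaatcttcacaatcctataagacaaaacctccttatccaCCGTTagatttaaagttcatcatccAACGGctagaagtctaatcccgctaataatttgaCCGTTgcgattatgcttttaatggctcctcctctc
CYCB1-4, chr2:11400868-11401147, plus strand: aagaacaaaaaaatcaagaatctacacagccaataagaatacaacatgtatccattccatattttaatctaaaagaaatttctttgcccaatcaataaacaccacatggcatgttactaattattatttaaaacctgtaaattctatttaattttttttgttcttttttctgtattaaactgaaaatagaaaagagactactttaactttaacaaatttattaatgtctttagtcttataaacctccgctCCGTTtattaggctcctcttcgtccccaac
KRP1, chr2:9978061-9978340, minus strand: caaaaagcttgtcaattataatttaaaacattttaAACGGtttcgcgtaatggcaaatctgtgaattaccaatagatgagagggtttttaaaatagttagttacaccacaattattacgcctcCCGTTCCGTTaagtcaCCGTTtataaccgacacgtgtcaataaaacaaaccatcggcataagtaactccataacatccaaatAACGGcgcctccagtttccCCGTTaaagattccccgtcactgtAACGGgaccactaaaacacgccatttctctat
CYCD3-1, chr4:16357171-16357450, plus strand: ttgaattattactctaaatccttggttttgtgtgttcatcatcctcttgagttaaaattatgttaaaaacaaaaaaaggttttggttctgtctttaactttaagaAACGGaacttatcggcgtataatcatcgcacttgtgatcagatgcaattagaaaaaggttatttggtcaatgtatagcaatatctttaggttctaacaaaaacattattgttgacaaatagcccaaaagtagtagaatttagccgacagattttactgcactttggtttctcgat
CYCD1-1, chr1:26439306-26439585, plus strand: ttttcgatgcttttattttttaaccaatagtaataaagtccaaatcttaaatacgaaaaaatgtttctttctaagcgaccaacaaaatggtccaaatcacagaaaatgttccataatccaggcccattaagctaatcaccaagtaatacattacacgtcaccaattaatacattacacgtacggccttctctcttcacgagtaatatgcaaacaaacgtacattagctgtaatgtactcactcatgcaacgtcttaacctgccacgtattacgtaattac

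**Figure D1:**
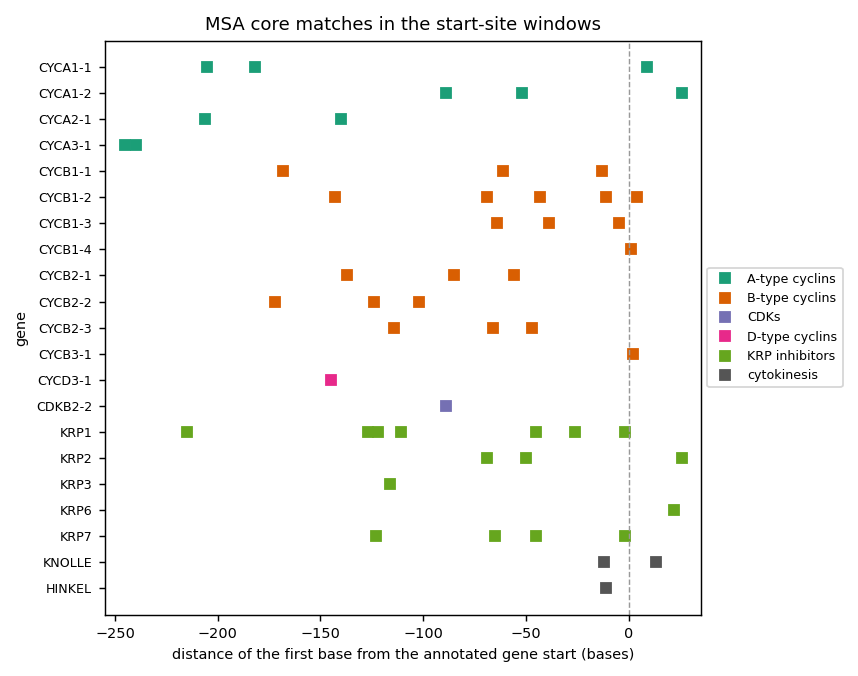
Position of each MSA core match, in bases from the annotated gene start, for the 21 genes that hold one, coloured by class. B-type cyclins and KRP genes fill most of the rows, and KRP1 has the longest row with 7 matches.

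The tables held 11225390 to 36431707 counts assigned to genes per 101 bp library and 11764200 to 15647439 per 36 bp library, so that 3 counts, the limit allowed by a count of 0, equal 0.0823 to 0.267 CPM (counts scaled to the library total and a TMM factor, set apart for each read length). Markers of all root lists were detected, including the root cap, root hair, endodermis and stem cell niche lists. BRI1 was counted at 142 and 135 CPM in bri1-116, against 114 and 129 CPM in mock, and DWF4 at 47.6 and 48.5 CPM in untreated dwf4, against 49.7 and 51.8 CPM in untreated Col-0, so transcript counts do not check these labels. Nothing in the labels tells if a group's 2 libraries are separate plant cultures, so p-values measure only the spread between libraries, which may be technical. In whole root tips, fewer cells of a type and less RNA per cell cannot be told apart.

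Of the 47 genes, 46 passed the filter on low counts. CYCD7-1, a D-type cyclin, was at 0 in 17 libraries and at 1 count, 0.0693 CPM, in the IAA+BL replicate 2, and was not tested. Per kilobase of exon, the highest mean levels in mock roots were those of SIM at 65.4 ± 1.45, CDKA-1 at 38.4 ± 0.0154, KNOLLE at 31.9 ± 1.08, CDKB2-1 at 31.1 ± 0.229 and SMR1 at 27.1 ± 0.183 CPM per kb (SD, n = 2). The lowest levels among tested genes were those of CYCA1-2 at 0.769 ± 0.0858, CYCD6-1 at 0.985 ± 0.0983 and CYCA2-1 at 1.13 ± 0.049 CPM per kb. Opposite-strand genes overlap 40.3% of the exon bases of SMR1, 38.7% of KRP4, 33.5% of KNOLLE, 31.4% of SIM, 24.4% of CYCD6-1, 19.5% of CCS52B, 18.3% of CDKB1-2 and 13.8% of CDKB2-2, and the strand setting of the counting was not given in the sources used here. Reads of such partners cannot be told apart, and CYCB2-3 and CYCB1-2 share 18.9% and 17.7% of their 36-base words with other places in the genome.

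With auxin alone, D-type cyclins and KRP inhibitors moved in both directions, as did the genes tested as a whole. Of 46 genes tested, 26 were called in IAA-treated roots against mock, 15 higher and 11 lower (56.5%), beside 59.3% of all 20644 genes tested (29.9% higher and 29.3% lower), so the share called was near the background. A gene was called at an adjusted p of at most 0.05 (edgeR quasi-likelihood F test, Benjamini-Hochberg over every gene tested), and all values after a gene's name without another unit are log2 fold changes. The median log2 fold change was 0.02 over the 46 genes and 0.0018 over all genes.

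CYCD3-1 (AT4G34160), a D-type cyclin known for driving S-phase entry, changed most. It stood at 54.8 and 54.9 CPM in IAA libraries, against 22.1 and 18.4 CPM in mock libraries, which is 2.72-fold or 1.45 on the log2 scale (SE 0.0902, adjusted p = 7.01e-10). The groups did not overlap. CYCD3-2, of the same subfamily, stood at 51.2 and 47.2 CPM with IAA, against 32.8 and 32.1 CPM in mock (0.61, SE 0.0606, adjusted p = 2.29e-07). CYCD1-1 stood at 28.6 and 30.3 CPM with IAA, against 19.5 and 20.6 CPM in mock (0.55, SE 0.0884). The other direction was taken by CYCD5-1, at 7.28 and 8.48 CPM with IAA, against 14.1 and 14.5 CPM in mock (log2 fold change -0.89, SE 0.118, adjusted p = 6.54e-06). CYCD4-1 fell as well, to 5.91 and 5.23 CPM with IAA, against 7.92 and 8.76 CPM in mock (-0.56, SE 0.138), and CYCD4-2 fell with it (-0.79, SE 0.246), a call lost without mock replicate 1 (adjusted p = 0.0987) or IAA replicate 2 (0.0641). In all, 3 D-type cyclins rose and 3 fell among the 9 tested, while CYCD3-3, CYCD2-1 and CYCD6-1 were not called, at 0.02, 0.02 and -0.52. The summed level of the D-type cyclins was 225 and 223 CPM with IAA, against 175 and 171 CPM in mock.

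**Figure D2:**
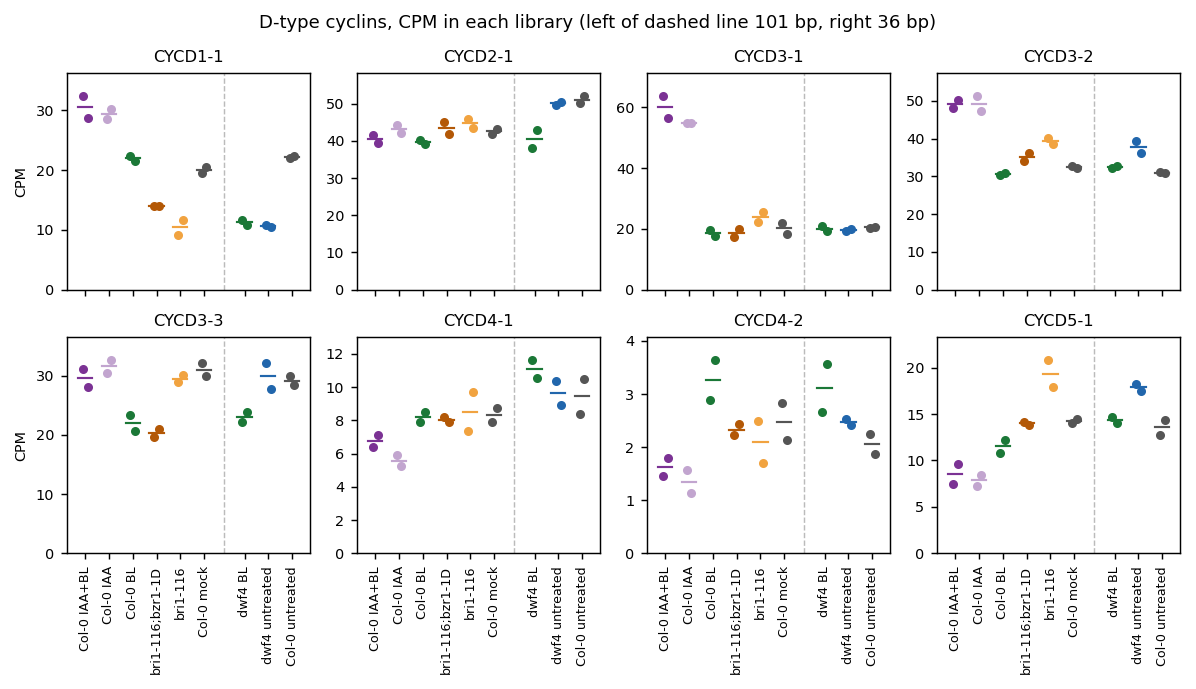
CPM of 8 D-type cyclins in each library (points, with the mean of 2 as a line), with the 101 bp groups left of the dashed line and the 36 bp groups right of it. CYCD3-1 stands at 54.8 and 54.9 CPM with IAA, against 22.1 and 18.4 CPM in mock, and CYCD1-1 is lower in both mutant backgrounds than in Col-0.

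Among the inhibitors, 2 of 7 KRP genes rose with IAA and 4 fell. KRP5 rose to 19.8 and 16.4 CPM with IAA, against 10.5 and 8.59 CPM in mock (log2 fold change 0.96, SE 0.12, adjusted p = 3.43e-06). KRP3 rose to 7.89 and 7.70 CPM, against 5.27 and 4.59 CPM in mock (0.67, SE 0.148). KRP2 (AT3G50630), an inhibitor known to hold back lateral root initiation, fell to 12.7 and 11.4 CPM with IAA, against 19.1 and 17.97 CPM in mock (-0.60, SE 0.087, adjusted p = 1.53e-05). KRP1 fell to 2.37 and 2.83 CPM, against 4.42 and 4.18 CPM in mock (-0.76, SE 0.17), and KRP7 fell with it (-0.65, SE 0.2), a call lost without mock replicate 2 (adjusted p = 0.124) or IAA replicate 1 (-0.37, adjusted p = 0.253). The fourth to fall was KRP4 (-0.18, SE 0.0741), and KRP6 was not called at -0.15. The summed level of the family was 72.6 and 70.5 CPM with IAA, against 75.2 and 70.7 CPM in mock, so opposite changes of single genes left overlapping sums. SIM, which drives repeated DNA replication in trichomes, rose to 67.6 and 66.1 CPM, against 52.6 and 51.0 CPM in mock (0.37, SE 0.0706), and SMR1 was not called at 0.22. CCS52A1 fell to 20.11 and 23.4 CPM, against 31.9 and 32.5 CPM in mock (-0.59, SE 0.0745, adjusted p = 3.67e-06), while CCS52A2 and CCS52B were not called, at -0.23 and -0.12.

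**Figure D3:**
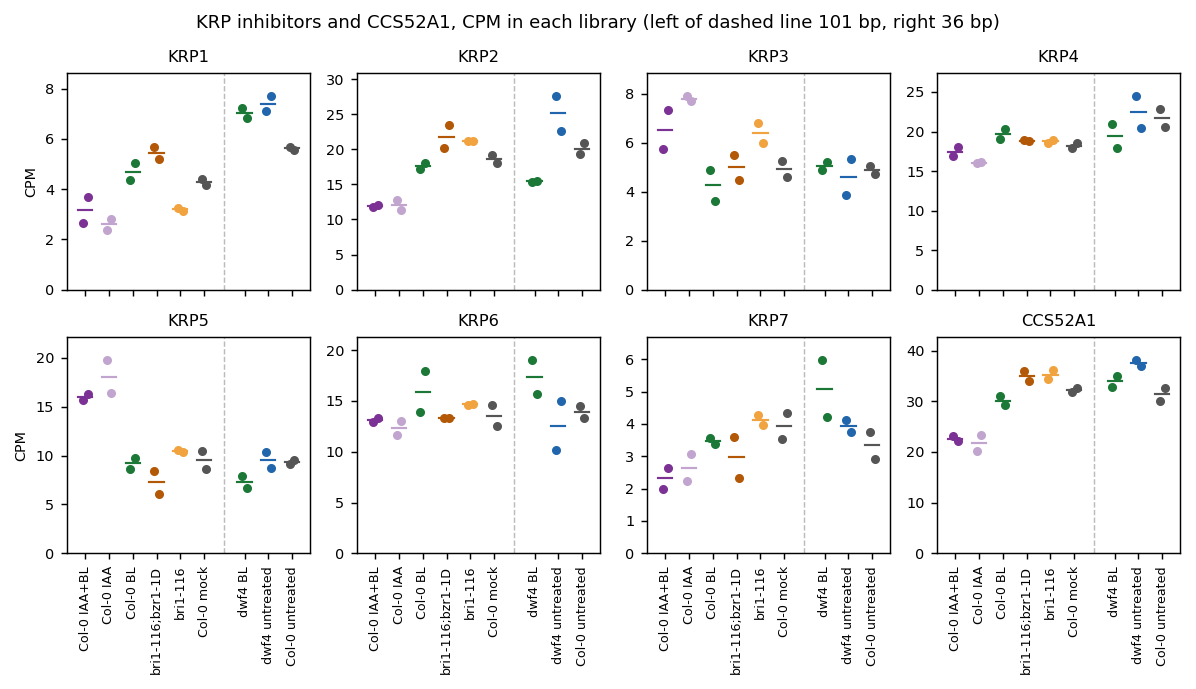
CPM of the 7 KRP inhibitors and CCS52A1 in each library (points, with the mean of 2 as a line), drawn as for the D-type cyclins. With IAA, KRP5 and KRP3 lie above mock and KRP1, KRP2, KRP7 and CCS52A1 below it, and KRP2 is lower in BL-treated than in untreated dwf4.

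Among the 5 kinases, 9 A-type and 9 B-type cyclins, 8 genes rose with IAA and 2 fell, beside 29.9% of all genes higher and 29.3% lower. CDKB2-1 (AT1G76540), a mitotic kinase, stood at 59.4 and 59.5 CPM with IAA, against 42.3 and 42.7 CPM in mock (0.48, SE 0.0714, adjusted p = 1.97e-05). CDKB2-2 (0.23) and CDKA-1 (0.17) rose, CDKB1-1 fell (-0.15) and CDKB1-2 was not called (-0.09). Of 9 A-type cyclins, CYCA2-2 (0.67), CYCA1-2 (0.60) and CYCA1-1 (0.46) rose, and the others, including CYCA2-3 at -0.15, were not called. CYCA2-2 stood at 16.3 and 16.2 CPM with IAA, against 9.94 and 10.5 CPM in mock. Of 9 B-type cyclins, CYCB2-2 (0.29) and CYCB1-4 (0.24) rose and CYCB1-2 fell (-0.18), while CYCB1-1 (AT4G37490), the mitotic cyclin used as a division marker, was not called at -0.13 (SE 0.0932). The kinesin HINKEL rose (0.27) and the cytokinesis syntaxin KNOLLE fell (-0.17).

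In these IAA libraries all 5 lateral root initiation markers rose, to summed levels of 453.6 and 454.5 CPM, against 18.3 and 19.4 CPM in mock. All 6 root hair markers and all 5 endodermis markers fell, to 306 and 312 CPM and to 322 and 281 CPM with IAA, against 539 and 552 CPM for root hairs and 443 and 482 CPM for endodermis in mock. The part of these markers' cells in the cyclin values was not tested. Of the 26 calls, 14 held under every alternative, among them CYCD3-1, CYCD5-1, KRP2, KRP5 and CCS52A1. Without single libraries 17 to 20 genes were called, the fewest without IAA replicate 1. Calls of CYCA1-2, CYCB1-2, CYCB1-4, CYCB2-2, CYCD4-2, CDKA-1, CDKB1-1, KRP4, KRP7, KNOLLE and HINKEL were lost without at least 1 of the 4 libraries, at adjusted p between 0.051 and 0.303.

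With BL added to IAA, CYCD3-1, KRP5, KRP2 and CCS52A1 were again among the genes called. There were 21 in all against the same mock libraries, 16 up and 5 down, beside 52% of all genes tested (26% up and 26.1% down). CYCD3-1 stood at 63.6 and 56.6 CPM with IAA+BL, against 22.1 and 18.4 CPM in mock (1.58, SE 0.0915, adjusted p = 2.96e-10). The fold changes of CYCD1-1 (0.62), CDKB2-1 (0.60), CYCD3-2 (0.60), CYCA2-2 (0.51), KRP5 (0.75), CYCD5-1 (-0.77), KRP2 (-0.64), KRP7 (-0.81), KRP1 (-0.48) and CCS52A1 (-0.51) stood beside those given for IAA alone, with the same mock libraries in both. Among the B-type cyclins, CYCB2-3 (0.35), CYCB2-2 (0.32), CYCB1-4 (0.26) and CYCB1-3 (0.20) rose, and among the rest CYCA1-1 (0.45), CDKB2-2 (0.38), SIM (0.32), SMR1 (0.29), CDKA-1 (0.24) and HINKEL (0.23). The markers of lateral root initiation summed to 425.6 and 398.2 CPM with IAA+BL. Of the 21 calls, 7 were lost without at least 1 library (CYCB1-3, CYCB1-4, CYCB2-2, KRP1, KRP7, SMR1 and HINKEL, adjusted p 0.0511 to 0.555). The SMR1 value was 0.07 without IAA+BL replicate 2 and 0.55 without replicate 1, and without replicate 1 KRP1 was at -0.21 and HINKEL at 0.16.

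Directly, IAA+BL against IAA called 0 of 46 genes by edgeR, beside 10.5% of all genes (5.4% higher and 5.13% lower), with 3 genes at an unadjusted p under 0.05 and 0 called by DESeq2. The largest fold change was 0.37. The interaction of BL with IAA, the change with IAA+BL beyond the sum of the separate changes, called 0 of 46, beside 1.44% of all genes (0.606% positive and 0.838% negative), with 4 at an unadjusted p under 0.05 and 0 by DESeq2. CYCD3-3 had an interaction of 0.40 (SE 0.112, adjusted p = 0.101).

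BL alone in Col-0 moved 1 of the 46 genes, beside 13% of all genes tested (6.37% higher and 6.59% lower). CYCD3-3 (AT3G50070), a D-type cyclin of the CYCD3 subfamily, fell to 23.3 and 20.6 CPM with BL, against 32.1 and 29.9 CPM in mock (log2 fold change -0.48, SE 0.0806, adjusted p = 0.00103). The groups did not overlap, and the call held under every alternative. No other gene passed, and 4 genes had an unadjusted p under 0.05. Among genes not called were CYCB1-1 (-0.13, SE 0.0996), CYCD3-1 (-0.09, SE 0.107), CDKA-1 (0.12, SE 0.0576), KRP2 (-0.07, SE 0.0881) and CCS52A1 (-0.09, SE 0.0752). Without BL replicate 1, 3 genes were called. In the same libraries the stem cell niche markers PLT2 (-1.14) and PLT1 (-0.76) fell, their list of 6 summing to 136 and 121 CPM with BL, against 149 and 156 CPM in mock, with 3 of 6 called lower. Its part in the CYCD3-3 value was not tested.

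The 2 mutants with reduced brassinosteroid response or synthesis were tested in separate libraries. In bri1-116, 13 of 46 genes were called against mock, 3 higher and 10 lower, beside 36.1% of all genes (16.7% higher and 19.4% lower). In dwf4, 5 genes were called against untreated Col-0, 2 higher and 3 lower, beside 12.7% of all genes (4.79% higher and 7.93% lower). Library totals without a composition factor called 7 in dwf4, 5 higher and 2 lower. All 5 genes called in dwf4 were called in the same direction in bri1-116, 100% of that list and 38.5% of the 13. Over the 46 genes, the sign was the same for 31, and Pearson's r of the fold changes across genes was 0.668, a description over genes that are not independent replicates. Over the 19502 genes tested in both, the sign was the same for 68.2%, against 67.4% of the 46, and r was 0.572. Of all genes called in dwf4, 70.8% were called in the same direction in bri1-116, which is 24.4% of those called there.

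CYCD1-1 (AT1G70210), a D-type cyclin, had the largest change in both. It stood at 9.17 and 11.7 CPM in bri1-116, against 19.5 and 20.6 CPM in mock (log2 fold change -0.94, SE 0.099, adjusted p = 1.58e-06). In dwf4 it stood at 10.9 and 10.5 CPM, against 22.0 and 22.4 CPM in untreated Col-0 (-1.05, SE 0.102, adjusted p = 0.000632). Neither pair of groups overlapped, and both calls held under every alternative. CYCB1-4 (AT2G26760), a B-type cyclin, stood at 21.1 and 22.5 CPM in bri1-116, against 28.9 and 30.4 CPM in mock (-0.45, SE 0.0821), and at 27.7 and 25.4 CPM in dwf4, against 36.5 and 36.0 CPM in untreated Col-0 (-0.45, SE 0.0854). CYCB1-3 (AT3G11520) stood at 19.4 and 20.11 CPM in bri1-116, against 24.8 and 24.2 CPM in mock (-0.31, SE 0.0779, lost without mock replicate 1 at an adjusted p of 0.051), and at 19.9 and 22.2 CPM in dwf4, against 27.7 and 27.7 CPM in untreated Col-0 (-0.40, SE 0.0972). CYCD5-1 rose in bri1-116 (0.44) and dwf4 (0.39), as did CYCD3-2 (0.28 and 0.29). CYCB1-1 was called in neither, at 0.17 (SE 0.0897) in bri1-116 and -0.05 (SE 0.124) in dwf4.

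**Figure D4:**
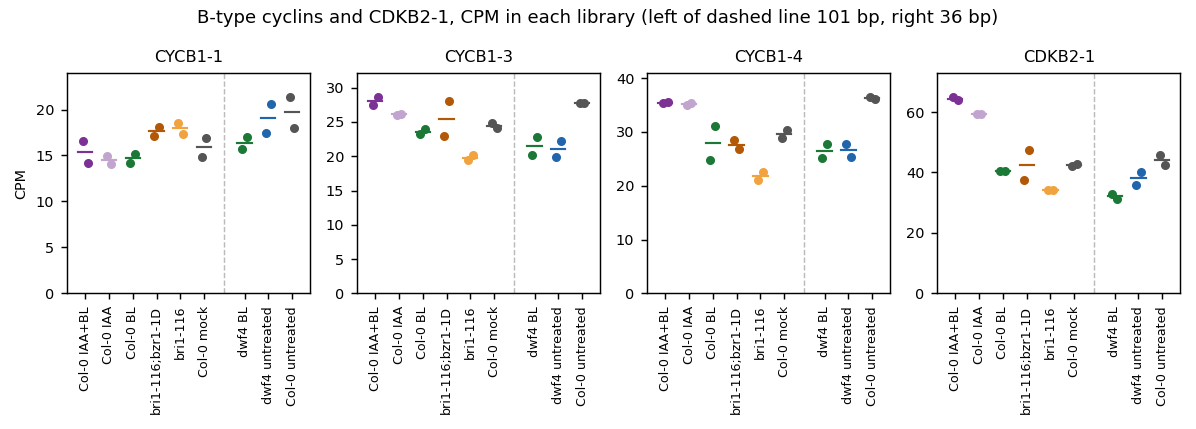
CPM of 3 B-type cyclins and the mitotic kinase CDKB2-1 in each library (points, with the mean of 2 as a line), drawn as for the D-type cyclins. CYCB1-3 and CYCB1-4 are lower in bri1-116 and in dwf4 than in their Col-0 controls, and CYCB1-1 lies between 14.1 and 21.4 CPM over all libraries.

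Further genes were called in bri1-116 and not in dwf4, though the difference between the mutants was not tested. CDKB2-1 stood at 34.4 and 34.2 CPM in bri1-116, against 42.3 and 42.7 CPM in mock (-0.31, SE 0.0738, adjusted p = 0.00351), and its estimate in dwf4 was -0.21. CYCA2-2 (-0.57), CYCA1-1 (-0.23), KRP1 (-0.43), CCS52A2 (-0.31), CCS52B (-0.17) and KNOLLE (-0.18) fell, and CYCA2-3 rose (0.21). CYCA2-2, CYCB1-4, CYCD1-1, CYCD3-2 and CDKB2-1 held under every alternative. The number called was 7 and 8 without bri1-116 replicates 1 and 2, and 8 and 9 without mock replicates 1 and 2, and calls of the other 8 were lost in at least 1 such fit (adjusted p 0.0504 to 0.392), with CYCA1-1 at -0.12 without mock replicate 1 and KNOLLE at -0.12 without mock replicate 2. In dwf4, 1 gene was called without Col-0 replicate 1 and 1 without Col-0 replicate 2, and 3 and 6 without dwf4 replicates 1 and 2. CYCB1-3, CYCB1-4, CYCD3-2 and CYCD5-1 each lost the dwf4 call without either Col-0 library, at adjusted p between 0.0971 and 0.262.

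The tissue markers moved with both mutants. All 5 xylem markers fell, to 262 and 259 CPM in bri1-116, against 486 and 502 CPM in mock, and to 355 and 370 CPM in dwf4, against 518 and 554 CPM in untreated Col-0. Of 5 endodermis markers, 5 fell in bri1-116, where they summed to 231 and 233 CPM, against 443 and 482 CPM in mock, and 4 fell and 1 rose in dwf4. Stem cell niche markers rose, 4 of 6 in bri1-116 and 2 of 6 in dwf4, to 190 and 192 CPM in bri1-116, against 149 and 156 CPM in mock. The root hair list summed to 664.5 and 689 CPM in bri1-116, against 539 and 552 CPM in mock. In dwf4 the root hair list summed to 550 and 576 CPM, against 429.5 and 392 CPM in untreated Col-0. The part of these lists in the cyclin values was not tested.

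In the double mutant, where stabilised BZR1 is added to bri1-116, 16 of 46 genes were called against bri1-116, 10 higher and 6 lower, beside 40.3% of all genes (21.2% higher and 19.1% lower). The B-type cyclins CYCB1-3 (0.36), CYCB1-4 (0.35), CYCB2-3 (0.33) and CYCB2-2 (0.28) rose, 4 of 9. CYCB1-3 stood at 22.9 and 28.1 CPM in the double mutant, against 19.4 and 20.11 CPM in bri1-116. CDKB2-1 rose to 37.6 and 47.5 CPM, against 34.4 and 34.2 CPM in bri1-116 (0.30, SE 0.0806), and without double-mutant replicate 2 neither it (0.13, adjusted p = 0.215) nor CYCB1-3 (0.21, adjusted p = 0.106) was called. CYCD1-1 rose to 14.1 and 13.9 CPM, against 9.17 and 11.7 CPM in bri1-116 (0.42, SE 0.119), and without bri1-116 replicate 1 or double-mutant replicate 1 neither it nor CYCB1-4 was called (adjusted p 0.0587 to 0.12), CYCD1-1 being at 0.26 without bri1-116 replicate 1. KRP1 had the largest rise, to 5.67 and 5.22 CPM, against 3.25 and 3.15 CPM in bri1-116 (0.77, SE 0.179, adjusted p = 0.00251). SIM (0.38), KNOLLE (0.28) and CCS52B (0.24) rose too.

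CYCD3-3, the gene that fell with BL, fell here to 19.6 and 21.0 CPM in the double mutant, against 28.8 and 30.1 CPM in bri1-116 (-0.54, SE 0.0867, adjusted p = 0.000108). CYCA1-2 (-0.72), KRP5 (-0.51), CYCD5-1 (-0.46), CYCD3-1 (-0.36) and CYCA2-4 (-0.32) fell with it, KRP5 being at -0.81 and -0.31 without double-mutant replicates 1 and 2. CYCA1-2 rests on few reads, at 1.07 and 1.08 CPM in the double mutant, against 1.76 and 1.80 CPM in bri1-116. DESeq2 did not call it (adjusted p = 0.224). CYCD3-3, KRP1 and SIM held under every alternative, and the other 13 calls were lost without at least 1 library (adjusted p 0.051 to 0.218). The number called was 8 without double-mutant replicate 1, 10 without its replicate 2, and 10 and 12 without bri1-116 replicates 1 and 2. Xylem markers rose, 5 of 5, to 500.2 and 499 CPM in the double mutant, against 262 and 259 CPM in bri1-116. Of 6 stem cell niche markers, 5 fell, their list summing to 144 and 139 CPM in the double mutant, against 190 and 192 CPM in bri1-116. The photosynthesis list used for shoot tissue summed to 125 and 135 CPM, against 49.0 and 42.5 CPM in bri1-116, with 4 of 5 called higher. The part of these lists in the member values was not tested.

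Against mock-treated Col-0, 6 genes were called in the double mutant, 2 higher and 4 lower, beside 16.2% of all genes (8.03% higher and 8.17% lower). CYCD3-3 stood at 19.6 and 21.0 CPM, against 32.1 and 29.9 CPM in mock (-0.61, SE 0.0865), and CYCD1-1 at 14.1 and 13.9 CPM, against 19.5 and 20.6 CPM in mock (-0.52, SE 0.11). CYCA1-1 (-0.41) and CYCA2-2 (-0.39) were lower, and SIM (0.26) and CYCA3-2 (0.22) were higher. The last 4 lost their calls without at least 1 library (adjusted p 0.0567 to 0.305), with 2 genes called without mock replicate 1 or double-mutant replicate 2 and 3 without mock replicate 2 or double-mutant replicate 1. CYCB1-3 and CYCB1-4 were not called against mock, at 0.05 (SE 0.085) and -0.10 (SE 0.0895). In the same libraries 4 of 5 photosynthesis markers rose, summing to 125 and 135 CPM, against 39.1 and 41.2 CPM in mock, and 4 of 5 endodermis markers fell, summing to 307 and 264.5 CPM, against 443 and 482 CPM in mock. Their part was not tested.

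BL given to dwf4 called 5 genes against untreated dwf4, 2 higher and 3 lower, beside 13.3% of all genes (7.86% higher and 5.45% lower). KRP2 fell to 15.3 and 15.5 CPM in BL-treated dwf4, against 27.5 and 22.7 CPM in untreated dwf4 (-0.70, SE 0.115, adjusted p = 0.0056), and held its call under every alternative. CYCD3-3 was at 22.2 and 23.9 CPM, against 32.1 and 27.7 CPM in untreated dwf4 (-0.37, SE 0.0972, adjusted p = 0.0383), and CYCD2-1 was at 38.0 and 43.1 CPM, against 49.7 and 50.4 CPM in untreated dwf4 (-0.30, SE 0.079). SMR1, an inhibitor related to SIM, rose to 35.6 and 32.2 CPM, against 24.4 and 26.3 CPM in untreated dwf4 (0.42, SE 0.0869). CYCA3-2 rose as well (0.37, SE 0.0824). CYCD1-1, CYCB1-3 and CYCB1-4, the genes lower in dwf4, were not called after 4 h of BL, at 0.07 (SE 0.11), 0.04 (SE 0.0997) and -0.0037 (SE 0.0878).

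Calls of CYCA3-2, CYCD2-1, CYCD3-3 and SMR1 were lost without at least 1 library (adjusted p 0.0584 to 0.189), for CYCD3-3 without untreated dwf4 replicate 1 (0.182) or BL replicates 1 (0.174) or 2 (0.0878). The number called was 1 without untreated dwf4 replicate 1, 5 without its replicate 2, and 3 without either BL library. All 5 endodermis markers rose, to 263 and 243 CPM in BL-treated dwf4, against 172 and 188 CPM in untreated dwf4, and 3 of 6 stem cell niche markers fell, to a sum of 124.5 and 129 CPM, against 163 and 155 CPM in untreated dwf4. Their part was not tested. BL-treated dwf4 had no mock-treated partner, so an effect of the treatment solution cannot be told apart from that of BL here.

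BL-treated dwf4 against untreated Col-0 called 9 genes, 1 higher and 8 lower, beside 18.8% of all genes (9.63% higher and 9.16% lower). CYCD1-1 stood at 11.6 and 10.9 CPM in BL-treated dwf4, against 22.0 and 22.4 CPM in untreated Col-0 (-0.98, SE 0.101, adjusted p = 0.000562). SMR1 was at 35.6 and 32.2 CPM, against 20.25 and 20.22 CPM in untreated Col-0 (0.74, SE 0.0878, adjusted p = 0.00104). An opposite-strand gene overlaps 40.3% of the exon bases of SMR1, and none of the alternatives sets its reads apart. CDKB2-1 (-0.46), CYCB1-4 (-0.45), SIM (-0.45), CYCB2-2 (-0.41), CYCB1-3 (-0.36), CYCD3-3 (-0.34) and CYCD2-1 (-0.33) were lower. CYCD1-1 and SMR1 held under every alternative, and the other 7 lost their calls without at least 1 library (adjusted p 0.0542 to 0.225). The number called was 2 and 4 without Col-0 replicates 1 and 2, and 3 and 6 without BL-treated replicates 1 and 2. All 5 xylem markers were lower, summing to 404 and 403 CPM in BL-treated dwf4, against 518 and 554 CPM in untreated Col-0, and 4 of 6 root hair markers were higher, summing to 687 and 523 CPM, against 429.5 and 392 CPM in untreated Col-0. Their part was not tested.

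The BL response of dwf4 was set against that of Col-0 in a fit of all 18 libraries. KRP2 was the 1 gene called of 46, beside 0.937% of all genes (0.633% with a positive and 0.304% with a negative difference). The difference of its responses was -0.63 (SE 0.141, adjusted p = 0.0429), with responses of -0.70 in dwf4 and -0.07 in Col-0. In Col-0, KRP2 stood at 17.2 and 18.1 CPM with BL, against 19.1 and 17.97 CPM in mock. The call was lost in 7 of the 8 fits that left out a library (adjusted p 0.07 to 0.196), the exception being untreated dwf4 replicate 2, and by DESeq2 (0.0824). The dwf4 response is against untreated and the Col-0 response against mock-treated roots, and read length differed too, so neither can be told apart from genotype here.

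**Figure D5:**
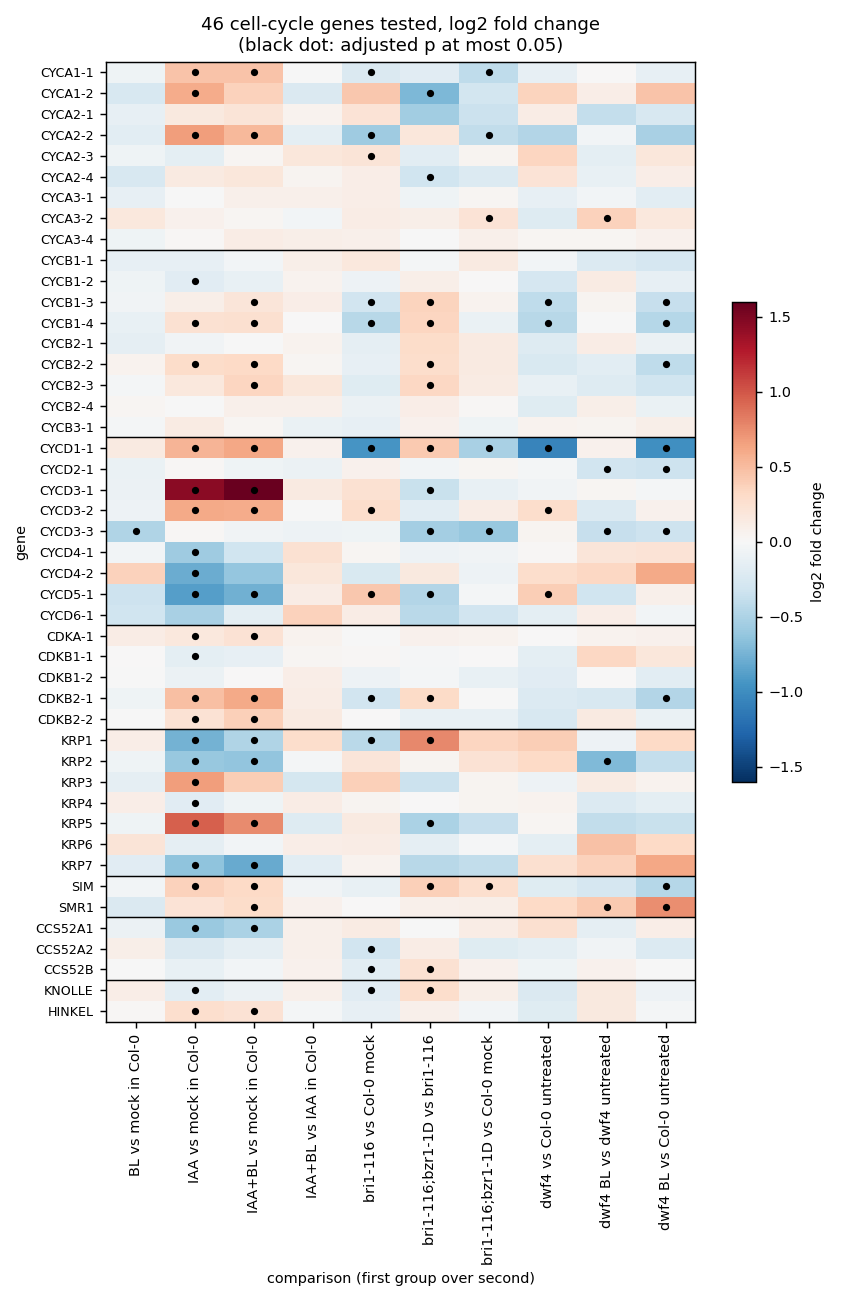
Log2 fold change of the 46 tested genes in 10 comparisons, with the first-named group over the second, coloured from blue (lower) to red (higher), and black dots for an adjusted p of at most 0.05. The row of CYCB1-1 holds no dot, CYCD1-1 is blue in bri1-116 and dwf4 and red with IAA, and CYCD3-3 is blue in each BL or bzr1-1D column without IAA.

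Across the 12 comparisons, CYCB1-1 was called in 0 by edgeR, with 0 at an unadjusted p under 0.05 and 0 called by DESeq2, and its log2 fold changes lay between -0.26 and 0.22. It is 1 of 10 tested genes with 0 calls by edgeR and 0 by DESeq2, the others being CYCA2-1, CYCA3-1, CYCA3-4, CYCB2-1, CYCB2-4, CYCB3-1, CYCD6-1, CDKB1-2 and KRP6, and 3 of their values had an unadjusted p under 0.05. The share of all genes tested that had 0 calls was not counted, so these 10 are not set apart from other genes. The mean level of these 10 in mock was lowest for CYCD6-1, at 1.59 ± 0.158 CPM (SD, n = 2). CYCD3-3 fell in BL-treated Col-0, in BL-treated dwf4 and in the double mutant against bri1-116, which share no library, and was not called with IAA+BL against IAA (-0.08, SE 0.0769). Its call in BL-treated dwf4 was lost by DESeq2 (adjusted p = 0.171), and by edgeR with a replicate block (0.0558) or only the groups compared (0.0899). How many of all genes fell in these same comparisons was not counted. Of 40 other cell-cycle genes tested from a list of 46 that held 41 with matching names, 15 rose and 7 fell with IAA (55% called, beside 59.3% of all genes). They included APC8 (0.87), DEL2 (0.77), E2FA (0.76), CDKC-2 (0.51), CDC20.2 (-0.52) and UVI4 (-0.48). In bri1-116, 3 rose and 5 fell (20% called, beside 36.1% of all genes), among them SMR5, an inhibitor of the SIM family, at -1.07, and AUR1, a mitotic kinase, at -0.31. SMR5 rose in the double mutant against bri1-116 (1.52), and AUR1 was lower in dwf4 (-0.47) and higher in BL-treated than in untreated dwf4 (0.35). SMR5 rests on few reads, at 0.764 and 0.671 CPM in bri1-116, 1.77 and 1.29 CPM in mock and 2.07 and 2.07 CPM in the double mutant. The alternatives were not examined gene by gene for this list. BL in Col-0 called 1 of the 40 (2.5%, beside 13% of all genes), OSD1 (-0.43).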

How the data were processed

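RNA-seq counts of reads per gene were used as the authors deposited them, 1 table per library with no normalisation. The submitters' processing notes list HTSeq, Bowtie, TopHat 1.4.0 and the build TAIR10. The strand setting and annotation release were not given in the sources used here. Rows that name no gene were left out (5.87 to 7.25% of reads at 101 bp, 10.9 to 12.0% at 36 bp). Most of these were counted as not uniquely aligned, 3.05 to 4.45% of reads at 101 bp and 8.18 to 9.35% at 36 bp. Each read length had its own fit (12 libraries at 101 bp, 6 at 36 bp) in edgeR 4.0.16 (R 4.3.3): TMM scaling, filterByExpr by group, a quasi-likelihood F test, and an adjusted p of at most 0.05 over all genes tested. All 18 were fitted together for the difference of the BL responses. SE is the log2 fold change divided by the root of F. Alternatives were DESeq2 1.42.0, 2 other scalings, no filter, other sets of libraries, a replicate block and leaving out each library. The test was run on simulated data first. Members and lists were chosen with earlier results of these data known. Per comparison the text names called members, up to 3 per class and direction by size and any remaining ones to account for the class, with defining members whether called or not. Of the other cell-cycle list it names up to 4 called per direction. The floors cover counting error only, while SD and SE values include the spread between libraries.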

Additional observations from a re-analysis of the deposited data

Results flagged for a closer look

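KRP2, an inhibitor of cyclin-CDK complexes, passed the test of the difference between the BL responses of dwf4 and Col-0, a call that few alternatives kept. The difference of the log2 responses, dwf4 minus Col-0, was -0.63 (SE 0.141, adjusted p = 0.0429 by edgeR over 20393 genes). The call was lost in 10 of 14 alternatives, among them DESeq2 (adjusted p = 0.0824), the replicate block (0.0655), a fit of only the groups compared (0.192) and 7 of the 8 fits without 1 library (0.07 to 0.196). KRP2 was at 15.3 and 15.5 CPM in BL-treated dwf4, against 27.5 and 22.7 CPM in untreated dwf4, and at 17.2 and 18.1 CPM in BL-treated Col-0, against 19.1 and 17.97 CPM in mock. Both libraries fell in dwf4, while the Col-0 groups overlapped. The dwf4 response is against untreated roots and the Col-0 response against mock-treated roots, and read length differed, so neither can be told apart from genotype in this difference. The groups of 2 libraries allow no search for single outlying libraries.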

How the results depend on the processing

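Of 103 calls of a gene in a comparison, 43 held under every alternative, 60 were lost under at least 1, and none changed direction in any alternative run. Numbers of genes called were within 1.5 times the reported ones except as follows. Without a low-count filter, BL in Col-0 called 2, the BL by IAA interaction 1 and the difference of BL responses 2. DESeq2 called 16 with IAA, 7 in bri1-116, 2 in dwf4, 2 for BL-treated against untreated dwf4, 5 for BL-treated dwf4 against Col-0 and 0 for the difference of BL responses. With only the groups compared in the fit, dwf4 gave 3, BL in dwf4 gave 2 and the difference of responses 0. All 18 libraries in 1 fit gave 3 for the double mutant against mock, 12 for dwf4 and 8 for BL in dwf4. The replicate block gave 3 for dwf4 and 0 for the difference of responses, and for the other comparisons it stayed within 1.5 times. Differences between replicates 1 and 2 were weakly correlated between groups (-0.175 to 0.166 at 101 bp and -0.176 to 0.0293 at 36 bp). No pairing by number was seen, but such correlations cannot exclude a shared culture or harvest. Leaving out 1 library, where the lone library of a group is assumed to vary like the others, gave 1 to 3 genes for BL in Col-0, 17 to 20 for IAA, 0 to 1 for the interaction, 7 to 9 for bri1-116, 8 to 12 for the double mutant against bri1-116, 2 to 3 for it against mock, 1 to 6 for dwf4, 1 to 5 for BL in dwf4, 2 to 6 for BL-treated dwf4 against Col-0 and 0 to 2 for the difference of responses. Such fits have fewer libraries, and the cause of the other differences was not tested. The 3 scalings moved the median of all genes by at most 0.0534 (log2). Genes under 2 CPM in mock, such as CYCA1-2 and CYCD6-1, rest on few reads.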
